A study of Glycine max with 12 samples.

Results

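The chromosome 13 block is a run of neighbouring soybean gene identifiers, from GLYMA_13G011400 to GLYMA_13G024300 in identifier order, whose read counts changed together from library to library in flower RNA. The limits of the run were set from the counts themselves, and a gene was a member when its reads summed to 10 or more over the 12 libraries. Of 130 identifiers in the range, 96 were members, out of 55897 genes in the count table. The other 34 identifiers held 119 reads together, 12 of them with no read. At the minimum, 5 members had 10 or 11 reads in sum and 8 identifiers just outside it had 8 or 9. Because the counts chose the block, its levels below are a description of these libraries.

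The study measured RNA in whole closed flower buds of soybean (*Glycine max*, cultivar Magellan) from well-watered plants without heat (CT), from plants under heat stress (HS) or water deficit (WD), and from plants under the combination (WD+HS). All plants were raised at 28°C by day and 24°C at night until the start of flowering and were sampled after 10 days of treatment. The WD and WD+HS plants then received water at 30% of what was available to transpire, CT and HS plants were watered fully, and for the HS and WD+HS plants the temperature was raised to 38°C each day and brought back to 28°C in the evening. Each treatment had 3 biological repeats, and a repeat was a pool of 30 to 40 flowers from 8 to 10 plants. A library stands for a single pool, so differences between pools and differences in RNA extraction or library preparation cannot be told apart. The treatments were given in growth chambers, and chamber and treatment cannot be told apart here. Closed buds hold sepals, petals, stamens and pistils together, and fewer cells of a type and less RNA per cell cannot be told apart in such pools.

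A nucleolar organizer is the chromosome site where the genes of the large ribosomal RNA precursor lie in long tandem arrays. These arrays are transcribed by RNA polymerase I, and their product, which has no poly(A) tail, makes up most of a cell's RNA. In soybean the ribosomal RNA gene array lies on chromosome 13. Near-identical repeats around such arrays make it hard to place a short read on a single copy, and gene models predicted inside them may not be protein-coding genes.

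The location of the block near that array could be checked only in part. None of the identifiers in the count table matched the RefSeq gene table given for soybean (0 matches), which is of another assembly (Glycine_max_v4.0), so no coordinates are given. There, 406 of 459 ribosomal RNA genes lie on chromosome 13, which places the array on the chromosome of the block and says nothing of the distance between them. The study's supplement, where it lists members, gives them no description, so no product or role is assigned to any member, and no member sequence was available to show.

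The libraries held 14049107 to 22415845 counted reads, and the factors of trimmed mean of M values (TMM) normalisation were 0.979 to 1.03, so depth differed little beside the differences described next. Flower tissue was checked with a list of 6 genes, among them an AGAMOUS-like 6 gene and K-box MADS-box genes. All but GLYMA_18G278500, described as TAPETUM 1, had reads in every library. That gene had 71 reads in sum, 49 of them in CT replicate 2 and 0 in WD replicate 3 and WD+HS replicate 3, and was not tested. In CPM, TMM-scaled reads per 1000000 counted, the summed level of the list was 41.9 to 49.0 CPM in CT, 39.2 to 62.0 CPM in WD, 10.2 to 14.1 CPM in HS and 28.4 to 36.7 CPM in WD+HS. In HS, 5 of the 5 genes of that list that could be tested were called lower than in CT by edgeR, and in WD+HS 3 of 5 were, where 16% and 19.1% of all genes tested were called lower. In WD none of the 5 was called, where 1.62% of all genes tested were. The list was picked from the study's supplement, which lists transcripts that differed between these samples, so these counts are not independent evidence.

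The share of counted reads on the block differed widely between libraries of the same treatment in CT, WD and WD+HS, and little within HS. In CT it was 0.985% in replicate 1, 1.46% in replicate 2 and 0.101% in replicate 3. In WD it was 0.129%, 0.107% and 0.348% in replicates 1 to 3, and in HS it was 0.113%, 0.112% and 0.0989%. In WD+HS it was 0.0769%, 0.0858% and 1.15%. CT replicates 1 and 2 and WD+HS replicate 3 were thus far above the rest, WD replicate 3 was between, and the other 8 libraries, from all 4 treatments, lay close together.

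Set against the median of the 12 libraries (0.113%), CT replicate 2 was 12.97-fold higher, WD+HS replicate 3 was 10.2-fold higher, CT replicate 1 was 8.73-fold higher and WD replicate 3 was 3.09-fold higher. The other 8 libraries ran from 0.682 to 1.14 of that median. The counting error of each share was small, with a 95% Wilson interval no wider than 1.77% of the share on either side, which covers counting error only. The highest library exceeded the lowest 14.5-fold within CT, 3.26-fold within WD, 1.15-fold within HS and 14.9-fold within WD+HS.

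**Figure D1:**
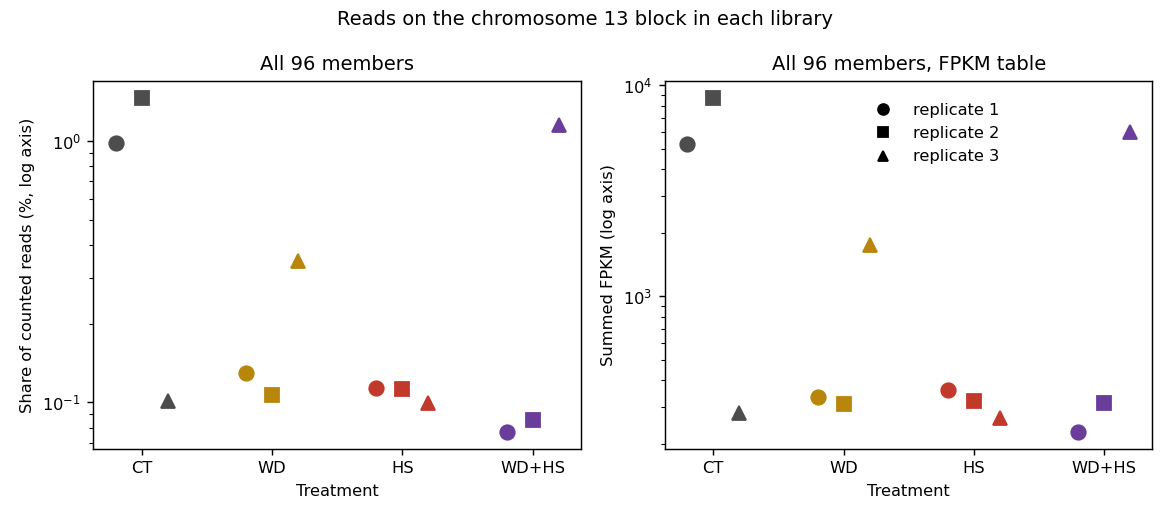
Share of counted reads on the 96 members (left, percent) and their summed FPKM (right), each on a log axis, for every library by treatment; the symbol gives the replicate number. In both panels CT replicates 1 and 2 and WD+HS replicate 3 lie far above the other libraries and WD replicate 3 lies between, while the 3 HS libraries lie together between 0.0989% and 0.113%.

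The mean share was 0.850 ± 0.691% in CT, 0.195 ± 0.133% in WD, 0.108 ± 0.00804% in HS and 0.437 ± 0.615% in WD+HS (SD, n = 3 each). Whether the spread followed treatment was tested on the log2 share. Treatment held 29.3% of the sum of squares, and an exact permutation test over all 369600 assignments of the libraries gave p = 0.432, where the smallest p this design allows is 6.49e-05. A difference between treatments beyond the spread of their libraries was not detected. Leaving out each library in turn gave 15.1% to 57.5%, with exact p from 0.106 to 0.764.

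Nor did any comparison of a pair of treatments pass its test. The mean log2 share was lower than in CT by 1.64 in WD (difference -1.64, two-sided exact permutation p = 0.4), by 2.28 in HS (-2.28, exact p = 0.3) and by 1.42 in WD+HS (-1.42, exact p = 0.3). WD+HS exceeded HS by 0.86 and WD by 0.22 on the log2 scale, each with exact p = 1. After Benjamini-Hochberg adjustment over these 5 comparisons the p-values from the exact tests were 0.667 against CT and 1 for the others, and 3 libraries against 3 cannot go below p = 0.1. CT replicate 3 lay inside the range of the HS libraries, and the ranges of WD, HS and WD+HS each overlapped that of CT. WD+HS replicates 1 and 2 lay below every HS and every WD library, and only WD+HS replicate 3 lay above them.

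A single member, GLYMA_13G024100, held 91.2% of all reads on the block, and between 90.7% and 92.6% in each library. Its reads were 137714, 297479 and 15105 in CT replicates 1 to 3 and 16669, 18165 and 47550 in WD. They were 18236, 19716 and 18133 in HS and 11539, 11110 and 173751 in WD+HS. In CT replicates 1 and 2 and in WD+HS replicate 3 it had more reads than any other gene of the table, in WD replicate 3 it was the 7th, and in the other libraries it lay between the 28th and the 60th. As a level, GLYMA_13G024100 was at 8964, 13455 and 914 CPM in CT and at 1030, 1020 and 890 CPM in HS, so that CT replicate 3 fell among the HS libraries. The fitted log2 fold change of HS against CT was -2.99 ± 0.82 (SE), which passed the test across all genes (adjusted p = 0.00771, edgeR quasi-likelihood), although the groups overlapped. With the robust form of the edgeR test the same fold change had an adjusted p of 0.120.

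For the same gene WD against CT gave -2.12 ± 0.79 (SE, adjusted p = 0.209, edgeR) and WD+HS against CT gave -0.95 ± 0.76 (adjusted p = 0.350, edgeR), so neither passed. Without WD+HS replicate 3 the latter became -3.37 with an adjusted p of 0.000694 by edgeR. Leaving out any other library did not give that call.

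The pattern did not rest on the leading gene. The other 95 members together held 868, 1359 and 81.7 of every 1000000 counted reads in CT, 103, 91.7 and 295 in WD, 98.1, 83.4 and 76.2 in HS, and 61.5, 77.7 and 977 in WD+HS. The same 3 libraries were high and WD replicate 3 was again between them and the rest. The highest library exceeded the lowest 16.6-fold in CT and 15.9-fold in WD+HS for these members, close to the values for the whole block.

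Of the 95, few had many reads. The median member held 81 reads summed over the 12 libraries, 54 of the 96 members held fewer than 100 and 10 held 1000 or more. In CT replicates 1 and 2 and in WD+HS replicate 3 at most 1 member was without reads, in WD replicate 3 there were 9, and in the other libraries 30 to 47 members were at 0. How reads that match several places were counted is not given in the sources used here. The division of reads among members is therefore uncertain, and the sum over the block may be as well.

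The members next in read number lie beside the leading gene at the upper end of the block. GLYMA_13G024200 was at 219, 456 and 9.81 CPM in CT, 13.3, 13.2 and 69.8 in WD, 18.2, 14.95 and 11.5 in HS, and 11.2, 14.6 and 268 in WD+HS. GLYMA_13G024300, the last member, was at 223, 312 and 42.7 CPM in CT, 51.9, 45.8 and 95.95 in WD, 35.6, 29.1 and 27.8 in HS, and 24.0, 28.5 and 242 in WD+HS. In GLYMA_13G024200 CT replicate 3 was the lowest of the 12 libraries, whereas in GLYMA_13G024300 it lay above each HS library, so this is a member in which CT and HS did not overlap. Against CT, HS gave log2 fold changes of -3.95 ± 1.04 (SE, adjusted p = 0.00586) for GLYMA_13G024200 and -2.65 ± 0.65 (SE, adjusted p = 0.00359) for GLYMA_13G024300, both by edgeR. With the robust edgeR fit neither passed (adjusted p = 0.107 and 0.0871).

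Towards the lower end of the range, GLYMA_13G012400 was at 74.7, 122 and 4.72 CPM in CT, 8.27, 7.09 and 24.8 in WD, 7.79, 6.67 and 6.48 in HS, and 4.93, 5.58 and 93.5 in WD+HS. GLYMA_13G012900 was at 22.2, 30.9 and 2.91 CPM in CT, 3.64, 3.52 and 8.88 in WD, 3.73, 4.03 and 3.24 in HS, and 1.75, 2.05 and 32.7 in WD+HS. In both, CT replicate 3 was below every HS library while CT replicates 1 and 2 were far above them. The log2 fold changes of HS against CT were -3.28 ± 0.89 (SE, adjusted p = 0.00752) and -2.36 ± 0.77 (SE, adjusted p = 0.0235) by edgeR, and without CT replicate 2 neither passed (adjusted p = 0.0572 and 0.137). For GLYMA_13G012900 the call was also lost without CT replicate 1 or any single HS replicate (adjusted p = 0.0623 to 0.0800, edgeR).

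GLYMA_13G012500 was at 21.8, 27.7 and 1.76 CPM in CT, 2.78, 2.42 and 8.95 in WD, 3.10, 2.59 and 2.46 in HS, and 1.06, 1.76 and 29.1 in WD+HS. GLYMA_13G013400 was at 18.4, 33.0 and 1.09 CPM in CT, 1.14, 0.549 and 5.32 in WD, 2.37, 1.45 and 1.03 in HS, and 0.811, 1.13 and 20.3 in WD+HS. In GLYMA_13G012500 the highest library was WD+HS replicate 3 and in GLYMA_13G013400 it was CT replicate 2, with the same 4 libraries on top in each. HS against CT gave -2.66 ± 0.86 (SE, adjusted p = 0.0216) and -3.46 ± 0.97 (SE, adjusted p = 0.00923) by edgeR. Neither passed without CT replicate 2 (adjusted p = 0.111 and 0.0753), and GLYMA_13G012500 did not without CT replicate 1 or any single HS replicate either (0.0548 to 0.0738, edgeR).

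GLYMA_13G014000 was at 29.2, 54.8 and 1.45 CPM in CT, 2.07, 1.98 and 11.8 in WD, 2.202, 2.38 and 1.62 in HS, and 1.68, 2.96 and 39.0 in WD+HS. GLYMA_13G023100 was at 38.1, 51.1 and 1.33 CPM in CT, 2.07, 2.03 and 10.8 in WD, 2.65, 2.85 and 2.94 in HS, and 1.62, 2.19 and 42.1 in WD+HS. Although their identifiers stand far apart in the block, both had CT replicate 3 as the lowest library and CT replicate 2 as the highest. HS against CT gave -3.80 ± 1.00 (SE, adjusted p = 0.00575) and -3.43 ± 0.97 (SE, adjusted p = 0.0101) by edgeR, again with overlapping groups, and the latter had an adjusted p of 0.0582 without CT replicate 2. With the robust edgeR fit neither passed (adjusted p = 0.104 and 0.132).

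Members followed one another closely over the libraries. For each member the log2(CPM + 1) value was correlated with the log2 summed level of the other members over the 12 libraries. Of the 52 members with enough reads to be tested, 51 had Pearson's r over 0.9 (0.914 to 0.999) and the median was 0.975 (median Spearman's rho 0.769). Leaving out the 2 libraries farthest from the median share, CT replicate 2 and WD+HS replicate 3, the median r was 0.957 over 10 libraries, with 44 of 52 over 0.9. The 44 members with too few reads had r from 0.411 to 0.986 (median 0.872). These values share the same libraries, and they rest mainly on the few libraries that stand apart.

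The same libraries ranked highest in most members. CT replicates 1 and 2 and WD+HS replicate 3 were the 3 highest libraries in 83 of the 96 members and in 51 of the 52 tested. The counts that chose the block show this pattern, so these numbers describe the members and test nothing. WD replicate 3 followed as the fourth in 62 of 96 members. CT replicate 2 was the highest library in 73 members, WD+HS replicate 3 in 15 and CT replicate 1 in 5.

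In CT, WD and WD+HS the tested members varied more between libraries than the genes of the table did. Their median SD on the log2(CPM + 1) scale was 1.27 in CT, 0.41 in WD, 0.11 in HS and 1.14 in WD+HS, where the medians over all genes tested were 0.15, 0.17, 0.14 and 0.15. The added 1 flattens the spread of members near 0 CPM, as many were in HS, so the HS value is not read against that of other genes. Treatment held a median of 33.0% of the sum of squares of a tested member (20.7% to 75.4%), against 57.7% over all genes tested. The biological coefficient of variation fitted by edgeR had a median of 0.752 over tested members and 0.133 over all genes tested. The block was chosen by changes of its counts between libraries. In addition, 23 of the tested members entered the test only through libraries in which they were high. That choice by itself favours a wide spread within treatments, so the values beside those of all genes tested are a description and test nothing.

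**Figure D2:**
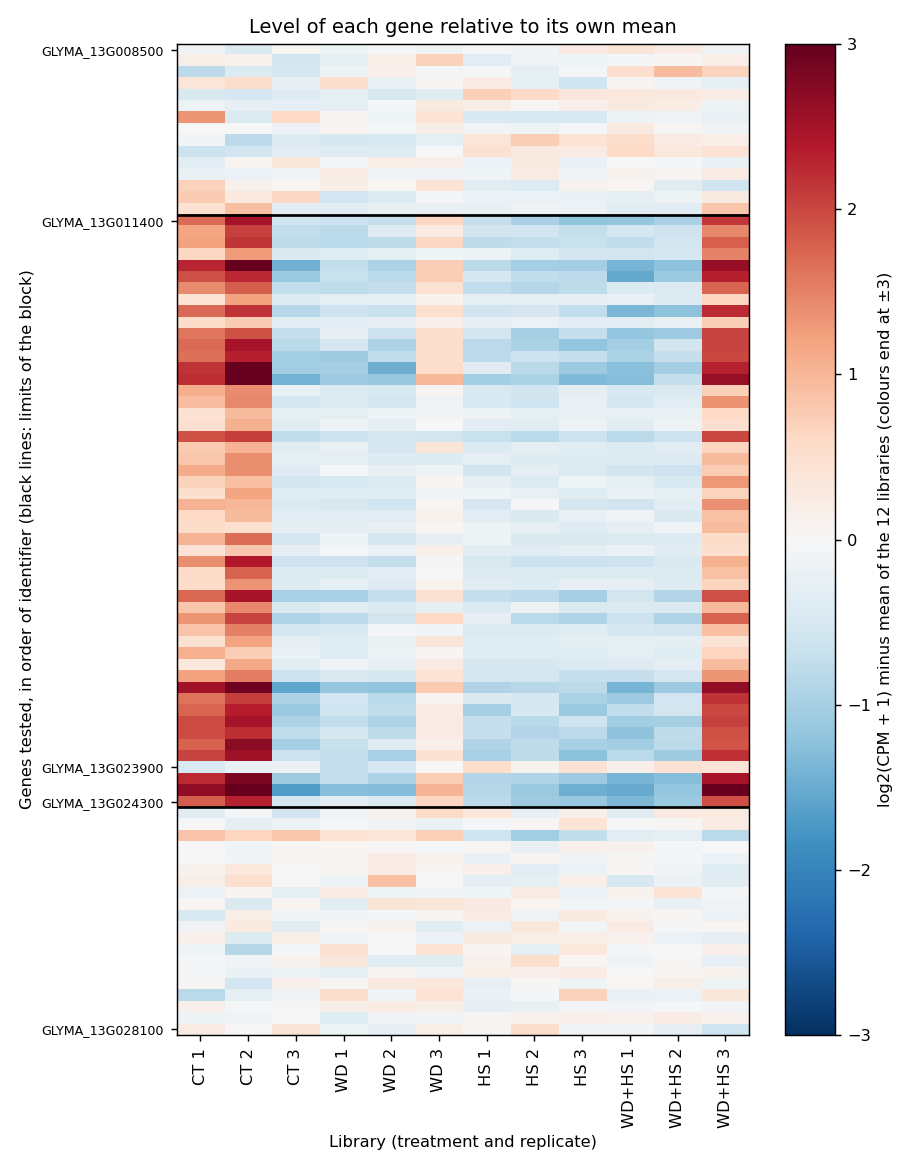
Level of each tested gene relative to its own mean, as log2(CPM + 1), in the 12 libraries (columns), for the 52 tested members between the black lines and for the tested genes among the 20 neighbours on either side, in identifier order. Columns CT 1, CT 2 and WD+HS 3 are high throughout the block except in the row of GLYMA_13G023900, and within the genes shown the pattern ends at both limits apart from the row just above the upper line.

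Where members departed from the common pattern, they did so in different ways. GLYMA_13G015900, named after its values were seen, had 684 reads in CT replicate 1, 10 in WD+HS replicate 3, 5 in CT replicate 2 and at most 2 in any other library. Its reads thus came almost wholly from a single library, and it was not tested. The tested members with the lowest likeness to the others after GLYMA_13G023900 were GLYMA_13G020100 (r = 0.914) and GLYMA_13G022400 (r = 0.929), both with few reads.

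GLYMA_13G020100 had 29, 78 and 0 reads in CT, 4, 0 and 3 in WD, 5, 1 and 1 in HS, and 1, 1 and 18 in WD+HS. GLYMA_13G022400 had 12, 44 and 1 reads in CT, 0, 2 and 10 in WD, 0, 0 and 1 in HS, and 1, 1 and 12 in WD+HS. In both the CT reads came from replicates 1 and 2, and no fold change is given for counts this low.

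GLYMA_13G023900 was the exception among the tested members, with r = -0.178 against the rest of the block although it lies next to the leading gene. It was at 3.45, 4.25 and 4.42 CPM in CT, 2.71, 3.30 and 5.18 in WD, 7.85, 5.59 and 7.31 in HS, and 5.86, 7.34 and 7.15 in WD+HS. Each of the 6 libraries from heated plants (HS and WD+HS) was above each of the 6 others. It rose in HS against CT (log2 fold change 0.77 ± 0.23 SE, adjusted p = 0.0147), in WD+HS against CT (0.74 ± 0.24, adjusted p = 0.0170) and in WD+HS against WD (0.86 ± 0.24, adjusted p = 0.00903), all by edgeR. Between WD and CT the fold change was -0.12 ± 0.24 (adjusted p = 0.882, edgeR) and between WD+HS and HS it was -0.03 ± 0.23 (adjusted p = 0.971, edgeR).

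For GLYMA_13G023900 treatment held 75.4% of the sum of squares, where the highest value among the other 51 tested members was 48.7%. Its calls were near the threshold: without CT replicate 1, HS replicate 1 or HS replicate 3 the adjusted p of HS against CT was 0.0628, 0.0658 or 0.0514 by edgeR, with fold changes of 0.67, 0.67 and 0.73. For WD+HS against CT it was 0.0649 without CT replicate 1 and 0.0559 without WD+HS replicate 2.

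The fit across all 38410 genes tested called 46 of the 52 tested members lower in HS than in CT and 1 higher (edgeR, adjusted p under 0.05), where 16% of all genes tested were called lower and 15.9% higher. This count cannot be read as a count over the block. Testing needed a level of 0.608 CPM in 3 libraries, all 52 members were above it in CT replicates 1 and 2 and WD+HS replicate 3, and 23 were above it in those 3 libraries alone, so these 23 entered the test only through libraries in which they were high. The level was reached in 3 or more of the other 9 libraries by 19 members. The median fitted log2 fold change of the 52 was -3.61 against 0.01 over all genes tested, and -3.59 with the 2 members that had no read in HS set to their bound of 3 reads per library.

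The CT libraries did not stand together in these calls. In 10 of the 52 tested members every HS library was below every CT library, a share of members (19.2%) near the 22.6% of all genes tested. Among the 46 called lower, CT replicate 3 was above every HS library in 10, within the HS range in 22 and below every HS library in 14. Without CT replicate 2 the number called lower was 16, all of them among the 46. The robust edgeR fit called 12 lower, DESeq2 called 39 of 96, and limma on log2(FPKM + 1) called 3 of the 85 members it could test.

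In WD against CT 0 of 52 tested members were called by edgeR, where 1.62% of all genes tested were (0.682% lower), although 41 had an unadjusted p under 0.05 and 52 of 52 had a negative fold change (median -2.44). DESeq2 called 0 as well. Without CT replicate 3 or without WD+HS replicate 3 the edgeR fit called 8 lower, and with no filter on low counts it called 22 of 96.

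In WD+HS against CT the only call was the rise of GLYMA_13G023900 described above, 1 of 52 where 36.8% of all genes tested were called (19.1% lower), with a median fold change of -0.97 over the members. Leaving out WD+HS replicate 3 turned 0 lower calls into 42 of the 55 members then tested. Leaving out CT replicate 3 gave 6 of 60, and 2 members had an unadjusted p under 0.05 in the full fit.

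In WD+HS against HS 0 of 52 were called by edgeR, where 9.15% of all genes tested were (3.21% higher), with a median fold change of 2.66 and 37 members at an unadjusted p under 0.05, and DESeq2 called 1. The count was 10 without CT replicate 3, 11 without WD replicate 1, 5 without WD replicate 2, 11 without WD+HS replicate 1 and 7 without WD+HS replicate 2, in each case higher in WD+HS. In WD+HS against WD 1 of 52 was called, again GLYMA_13G023900, where 30.2% of all genes tested were, with a median of 1.40. The comparisons with CT share the same 3 control libraries, so their directions are not separate observations.

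**Figure D3:**
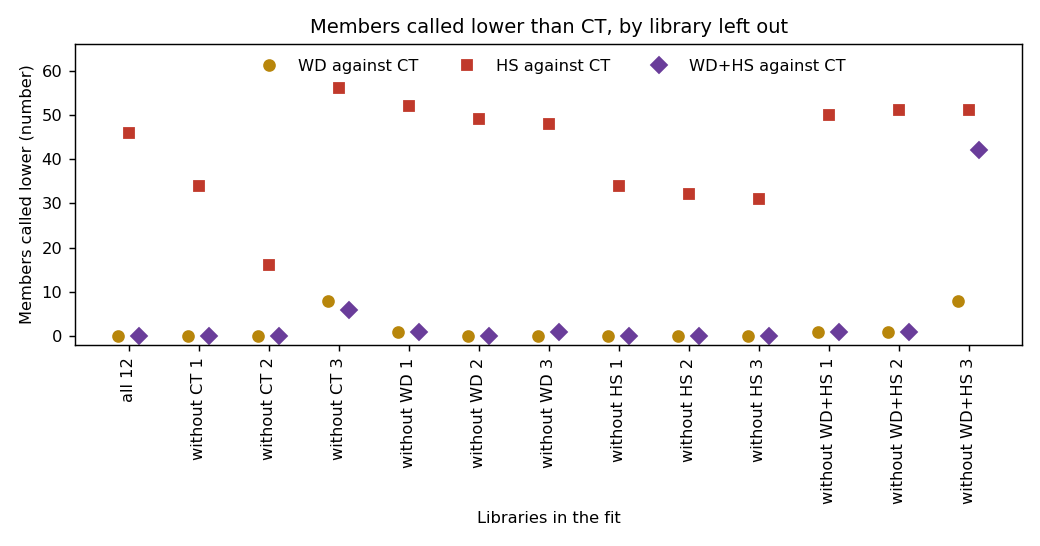
Number of members called lower than CT by edgeR (adjusted p under 0.05) in WD, HS and WD+HS, with all 12 libraries and with each library left out in turn. The HS count falls from 46 to 16 without CT replicate 2, and the WD+HS count rises from 0 to 42 without WD+HS replicate 3.

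Most genes next to the block lacked its pattern. Among the 20 genes with 10 or more reads just below the block (GLYMA_13G008500 to GLYMA_13G011200), of which 15 were tested, r with the block share had a median of -0.239, and 1 exceeded 0.9. That gene, GLYMA_13G011200, is the nearest to the block, and had 11, 29 and 0 reads in CT, 0, 1 and 1 in WD, 1, 3 and 2 in HS, and 0, 0 and 20 in WD+HS. It thus resembled the members and could have stood inside the limit, although it carried only 68 reads.

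The next genes outward did not show the pattern. GLYMA_13G011100 had 26, 21 and 24 reads in CT, 1, 4 and 8 in WD, 7, 8 and 8 in HS, and 5, 6 and 15 in WD+HS. In CPM its 3 CT libraries (1.69, 0.950 and 1.45) were above all others, with WD+HS replicate 3 next at 0.909. It fell in HS (log2 fold change -1.74 ± 0.62 SE, adjusted p = 0.0365, edgeR), a call lost without CT replicate 1, CT replicate 3 or any single HS replicate (adjusted p = 0.0893 to 0.121). GLYMA_13G010700 was at 6.74 ± 1.95 CPM in CT, 6.21 ± 0.961 in WD, 4.39 ± 1.09 in HS and 4.11 ± 1.20 in WD+HS (SD, n = 3 each), and the libraries that stood apart in the block did not do so here.

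Above the block, the 20 genes from GLYMA_13G025500 to GLYMA_13G028100, all 20 of them tested, had a median r of -0.235 and none over 0.313. The identifier that follows this window, GLYMA_13G028200, had r = 0.974 and is described further on. GLYMA_13G025500 was at 1.09 ± 0.385 CPM in CT and 1.75 ± 0.515 in HS, and GLYMA_13G025700 at 14.2 ± 1.19 in CT and 17.7 ± 3.13 in HS (SD, n = 3 each), with no call in HS, although GLYMA_13G025700 was called higher without HS replicate 1 (adjusted p = 0.0397, edgeR). GLYMA_13G025800 was at 5.66, 4.75 and 5.51 CPM in CT, 3.85, 3.68 and 4.98 in WD, 1.41, 0.776 and 1.18 in HS, and 1.87, 2.05 and 1.09 in WD+HS. Each HS and WD+HS library was below each CT and WD library, while CT overlapped WD and HS overlapped WD+HS. Against CT it fell in HS (-2.24 ± 0.31 SE, adjusted p = 1.15e-05) and in WD+HS (-1.67 ± 0.30 SE, adjusted p = 0.000193) by edgeR. In HS against CT, 2 of the 15 tested neighbours below the block were called lower and 4 higher, and 2 of the 20 above it lower and 1 higher, where 16% of all genes tested were called lower and 15.9% higher.

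The deposited table of FPKM (fragments scaled by transcript length and mapped depth), made from the same reads, showed the same libraries apart but ordered the members differently. The summed FPKM of the 96 members was 5295, 8741 and 278 in CT, 331, 308 and 1756 in WD, 360, 318 and 263 in HS, and 227, 310 and 6004 in WD+HS. The highest library exceeded the lowest 31.4-fold in CT and 26.5-fold in WD+HS, a wider gap than in counts. CT replicates 1 and 2 and WD+HS replicate 3 were the 3 highest libraries in 85 of the 96 members by FPKM.

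In the FPKM table the leading member by reads lost its place, and the reason for the difference in order was not tested. GLYMA_13G024100 was the 20th member by mean FPKM and held 1.24% of the summed FPKM, while GLYMA_13G012000, with 82 reads in the count table, was the highest and held 11.1%. Mean CPM ran from 0.0488 to 3641 over the members, yet 81 of the 96 had a mean FPKM between 10 and 60, with quartiles of 16.6 and 24.2. GLYMA_13G024300, with 20561 reads, was among the 10 members with a mean FPKM under 0.01. Over the 96 members Spearman's rho of mean CPM and mean FPKM was -0.328, so the level of a single member depends on the table from which it is read, and the counting program behind the count table is not given in the sources used here.

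**Figure D4:**
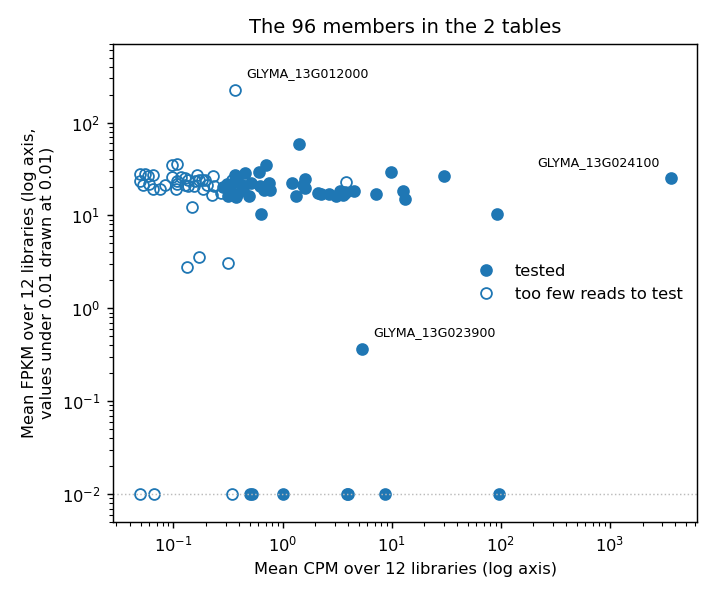
Mean FPKM against mean CPM over the 12 libraries for the 96 members, both on log axes, with filled points for the 52 tested members and open points for the 44 others; members with a mean FPKM under 0.01 are drawn on the dotted line. Most members lie on a flat band between FPKM 10 and 60 whatever their CPM, and 10 lie on the line.

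The library pattern also occurred in a few genes elsewhere in the genome. Of 38358 tested genes outside the block, 24 (0.0626%) had r over 0.9 with the block share. They were spread over many chromosomes, with 2 of them on chromosome 13 and 2 with identifiers that name no chromosome. The gene most like the block, GLYMA_09G164000 on chromosome 9 (r = 0.997 over 12 libraries, rho = 0.937, and r = 0.994 without the 2 libraries named above), was at 191, 286 and 11.1 CPM in CT, 11.9, 9.07 and 55.6 in WD, 11.8, 12.9 and 10.6 in HS, and 6.67, 9.67 and 225 in WD+HS. Its high and low libraries were those of the block, and CT replicate 3 fell inside the HS range. HS against CT gave -3.80 ± 1.02 (SE, adjusted p = 0.00700, edgeR), a call lost with the robust edgeR fit (adjusted p = 0.115) and with limma on FPKM plus 1 (0.150).

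The genes that followed were GLYMA_18G092200 (r = 0.991), GLYMA_08G269900 (0.986), GLYMA_03G084500 (0.981), GLYMA_18G057100 (0.979), GLYMA_13G028200 (0.974), GLYMA_09G133900 (0.968), GLYMA_07G079300 (0.966), GLYMA_11G162200 (0.963) and GLYMA_16G174400 (0.958). In counts GLYMA_18G057100 showed the pattern on top of a higher floor, with 93.3, 124 and 27.8 CPM in CT, 31.3, 28.3 and 47.2 in WD, 28.6, 34.1 and 33.2 in HS, and 31.1, 32.5 and 110 in WD+HS. By FPKM it lacked the pattern, at 4.49, 4.57 and 7.31 in CT and 5.62 in WD+HS replicate 3. Likeness was measured in counts, and by FPKM some of these genes kept the pattern and others did not. GLYMA_09G164000 kept it, at 141, 155 and 15.5 FPKM in CT, whereas GLYMA_03G084500 was at 0 FPKM in every library. Of the 24 genes, 14 were called lower in HS than in CT by edgeR and none higher, where 31.8% of all genes tested were called in either direction, but these genes were chosen by their likeness to the block.

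Of these genes, GLYMA_13G028200 and GLYMA_11G162200 are described in the study's supplement as photosystem II reaction center protein A, a core protein of the water-splitting photosystem that plants encode in the plastid genome. They belong to a list of 6 genes that the supplement describes as proteins normally encoded in plastids or mitochondria. They were picked from the supplement's lists of transcripts that differed between these samples, so the list is not independent evidence. In each of the 6 genes CT replicates 1 and 2 and WD+HS replicate 3 were the 3 highest libraries. Their summed level was 35.0, 45.7 and 9.62 CPM in CT, 9.63, 10.1 and 19.4 in WD, 11.2, 11.9 and 9.92 in HS, and 7.86, 6.56 and 56.6 in WD+HS. 

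GLYMA_13G028200 was at 11.9, 15.1 and 0.726 CPM in CT, 1.93, 0.769 and 5.79 in WD, 1.19, 1.86 and 1.18 in HS, and 0.749, 0.423 and 27.8 in WD+HS. Its order of libraries was near that of the block, with WD+HS replicate 3 on top. GLYMA_12G155300, described as subunit 3 of cytochrome c oxidase, the last enzyme of mitochondrial respiration, was at 4.62, 7.78 and 3.09 CPM in CT, 1.71, 2.198 and 3.03 in WD, 1.47, 1.76 and 1.13 in HS, and 0.686, 0.706 and 5.94 in WD+HS. These were the 2 genes of the list called lower in HS by edgeR, with fold changes of -2.72 ± 1.03 (SE, adjusted p = 0.0492) and -1.84 ± 0.56 (SE, adjusted p = 0.0151).

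Neither call held without CT replicate 2 (adjusted p = 0.187 and 0.107, edgeR). GLYMA_13G028200 was not called without CT replicate 1 or any single HS replicate either (0.0944 to 0.135), nor was GLYMA_12G155300 without HS replicate 3 (0.0647). The 2 of 6 called lower stand beside 16% of all genes tested, and the median fold change of the list in HS was -1.61. In WD and in WD+HS against CT none of the 6 was called, where 1.62% and 36.8% of all genes tested were. GLYMA_12G232000, described as ATP synthase subunit alpha, a part of the catalytic head of that enzyme, changed least in HS (-0.29 ± 0.28 SE, adjusted p = 0.454, edgeR). The levels of these genes moved with those of the block to differing degrees. Their r with the block share ran from 0.734 in GLYMA_06G217900 and 0.793 in GLYMA_12G232000 to 0.974 in GLYMA_13G028200. The part of these genes in the result was not tested.

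A further group of features stood with the block in the FPKM table alone. That table holds 1250 features with identifiers beginning ENSRNA, which have no row in the count table and no description in the sources used here. Their summed FPKM was 60428, 111918 and 11625 in CT, 5719, 5653 and 41529 in WD, 6543, 8567 and 6819 in HS, and 4307, 7655 and 115818 in WD+HS. As a share of all FPKM this was 9.13%, 16.2% and 1.78% in CT, against 1.05% to 1.39% in HS and up to 17.0% in WD+HS. CT replicates 1 and 2, WD+HS replicate 3 and WD replicate 3 were again the 4 highest.

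Of 351 such features with FPKM of at least 1 in some library, 154 (43.9%) had r over 0.9 with the block share, against 34 of 36023 other genes outside the block (0.0944%). A single library at that level was enough, so a feature or gene could enter through the libraries in which the block was high. How many entered in that way was not counted, so these shares are a description. ENSRNA050003325, for example, was at 211, 338 and 30.2 FPKM in CT, 36.9, 32.4 and 87.0 in WD, 31.4, 31.7 and 27.1 in HS, and 21.98, 23.5 and 247 in WD+HS. The sources used here do not state whether poly(A) RNA was selected or ribosomal RNA removed beyond the maker's standard protocol. The summed level of these features moved with the block, and their part in the result was not tested.

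**Figure D5:**
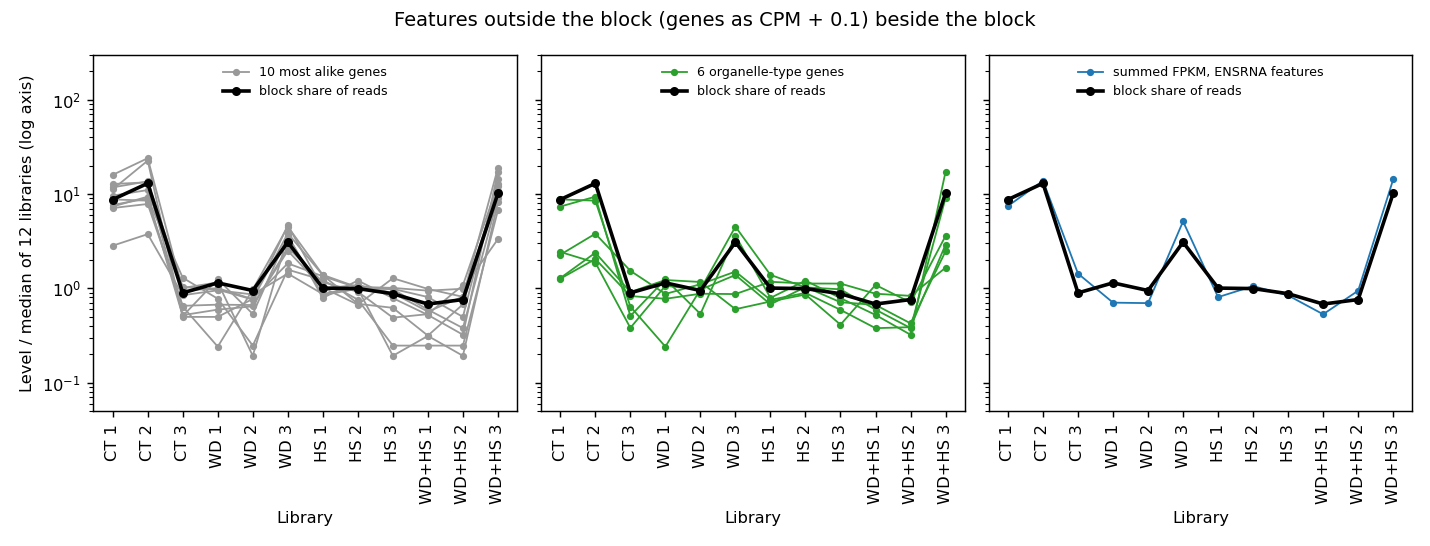
Level divided by the median of the 12 libraries (log axis) for the 10 tested genes outside the block most like it (left), the 6 genes described as organelle-type proteins (middle), both as CPM + 0.1, and the summed FPKM of the ENSRNA features (right), each beside the share of reads on the block (black). All 3 sets are highest in CT replicates 1 and 2 and WD+HS replicate 3, where the block is 8.73-, 12.97- and 10.2-fold above its median.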

How the data were processed

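Flower buds from 4 treatments were measured by RNA-seq in 12 libraries, 3 for each treatment. The authors used Trim Galore to trim the reads and HISAT2 (version 2.2.1 in the submitters' processing notes) to align them with the Ensembl Plants genome of soybean, followed by sorting with SAMtools. The deposited counts are raw reads per gene in each library, and the program that counted them and its treatment of reads with several matches are not given in the sources used here. The deposited FPKM values were made by the authors with Cufflinks and are scaled by transcript length and mapped fragments. No column of sample values was left out of use (0 columns).

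Counts of 55897 genes were filtered with filterByExpr (minimum count 10), scaled by TMM and tested with edgeR 4.0.16 (quasi-likelihood test, R 4.3.3) in a fit of all 12 libraries and 4 groups. Adjustment followed Benjamini and Hochberg over all 38410 genes tested, and an adjusted p under 0.05 was a call. CPM are TMM-scaled counts per 1000000 reads. Shares are percentages of counted reads, and they were tested by exact permutation in Python 3.11.15. FPKM was tested with limma 3.58.1 after adding 1 or 0.1, on genes with at least 1 FPKM in 3 libraries, and DESeq2 1.42.0 was run on the counts as an alternative. Other alternatives were upper-quartile factors, no factors, library sizes without the block, other filters, a minimum log2 fold change of 1, a robust fit, the replicate block, fits of only the libraries compared and each library left out. The study's own test, Cuffdiff, needs alignments and was not repeated.

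The members and the lists were chosen with earlier results of these data known. Named genes were the 10 members with the highest mean CPM, the 3 tested members least correlated with the rest, any member called higher in a comparison or called in WD against CT, the 3 tested genes next to the block on either side, the 10 tested genes outside it most correlated with its share, and the genes of an organelle and a flower list.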

Additional observations from a re-analysis of the deposited data

How the results depend on the processing

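The direction of the difference in block share kept in every alternative run for each stress against CT. No exact test over the 4 groups passed 0.05. The exact tests of a stress against CT could not pass it, since 3 libraries against 3 cannot go below p = 0.1. Leaving out each library in turn gave log2 differences of -2.83 to -0.90 for WD, -3.47 to -1.55 for HS and -2.69 to -0.68 for WD+HS, and 15.1% to 57.5% of the sum of squares for treatment. The median share of the sum of squares held by treatment over the members was 20.0% to 62.8%.

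Counts of members called changed most. In HS against CT the total of 47 of 52 tested became 13 of 52 with the robust fit, 3 and 4 of 85 with limma on FPKM plus 1 and plus 0.1, and 17 to 57 with each library left out. It was 11 of 11 tested with at least 10 counts in every library and 23 of 23 when only the compared libraries were fitted. It was 0 of 19 without the 4 libraries with the highest shares, chosen by the measured share after seeing the data. That choice leaves CT with 1 library, assumed to vary like the other groups, and takes away the high libraries itself, so its counts say nothing of stability. In WD against CT the total of 0 became 22 with no filter and 0 to 8 with a library left out. In WD+HS against CT the total of 1 became 0 with a minimum log2 fold change of 1, 4 with no filter, 2 with only the compared libraries, 2 with DESeq2 and 0 to 43 with a library left out. In WD+HS against HS the total of 0 became 29 with no filter, 14 with only the compared libraries, 1 with DESeq2, 1 without the 4 libraries and 0 to 11 with a library left out. In WD+HS against WD the total of 1 became 0 with the minimum fold change, 4 with no filter, 3 without the 4 libraries, 0 and 0 with limma and 1 to 4 with a library left out. The filters and the fits with fewer libraries change which members are tested. The cause of the other changes was not tested.

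Over the named genes, 1314 of 1469 values under an alternative kept direction and call, 112 lost a call and 36 gained it. Direction turned for GLYMA_13G023900 in WD without WD replicate 1 (0.045, lowest -0.42 with a library left out), the same gene in WD+HS against HS, which ran from -0.16 to 0.074 with a library left out, GLYMA_12G232000 in HS without CT replicate 2 (0.12, lowest -0.56) and GLYMA_18G057100 in HS with limma on FPKM (0.23 and 0.27). Replicate numbers do not pair the samples, since deviations of libraries with the same number had correlations from -0.150 to 0.112. With the replicate number as a block the HS count was 45, the other counts were 0, 1, 0 and 1, and treatment held 29.8% of the sum of squares of the share (exact permutation p = 0.530). Values for members with few reads are limited by depth.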
